A study of Mus musculus with 6 samples.

Results

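The chemokine ligands and chemokine receptors of the mouse were followed in ribosome-bound RNA of lung pericytes with and without the transcriptional co-activators YAP1 and TAZ (TAZ is encoded by Wwtr1). The group was set by name: every protein-coding gene with a Ccl, Cxcl, Ccr, Cxcr or Ackr symbol in the GENCODE M21 annotation, together with Xcl1, Cx3cl1, Cx3cr1 and Xcr1. This gave 60 of the 21603 genes measured, 37 ligands and 23 receptors. Pericytes are mural cells that wrap capillaries, and the question asked here was which of these genes a pericyte preparation contains and how they differ once both co-activators are deleted.

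RNA came from C57BL/6 lungs at postnatal day (P) 8, 3 control and 3 Yap1,Wwtr1 iPCKO samples (inducible pericyte-specific knockout). Both groups carried the Cre transgene Pdgfrb(BAC)-CreERT2 as T/+ and the tag allele as Rpl22 lox/+. Controls were Yap1 lox/+ and Wwtr1 lox/+ (labelled Yap1+/-;Wwtr1+/-), and iPCKO mice were Yap1 lox/lox and Wwtr1 lox/lox (labelled Yap1-/-;Wwtr1-/-). Both received tamoxifen from P0 to P2, and the controls had lost 1 copy of each deleted gene, so no wild-type pericytes were compared. The transgene makes Cre under Pdgfrb regulatory sequence, which is active in mural cells and in some other mesenchymal cells. Cre activates a haemagglutinin (HA) tag on the ribosomal protein RPL22, and ribosomes were pulled out of whole-lung lysate with an anti-HA antibody. The labels do not say whether each sample was 1 animal or several, so the p-values measure the spread between these samples.

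Chemokines are small secreted proteins that bind heparan sulphate on cell surfaces and steer leukocytes along their gradients. Their receptors are G protein-coupled receptors with 7 membrane passes, and most are carried by leukocytes, whereas the atypical receptors (ACKR) take up chemokines without G protein signalling. Stromal cells are known as sources of CXCL12, CCL2, CXCL13 and CXCL14, while CCR1, CCR2, CX3CR1 and CXCR2 are best known from monocytes, macrophages and neutrophils.

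The pulldown held strong pericyte RNA together with RNA of other cells. Values are RPKM, read counts scaled to the exon length of the gene and to the mapped reads of the sample, so levels of different genes can be set side by side per length. Pdgfrb lay between 1369 and 1666 RPKM in controls and between 1193 and 1447 RPKM in iPCKO samples, and the mean over 12 pericyte markers differed by 0.01 on the log2 scale. Sftpc of alveolar type II epithelium was nevertheless at 338 to 381 RPKM in controls, and the 5 erythrocyte markers summed to between 1867 and 2338 RPKM there. The deleted genes were read first. Yap1 was 13.2, 11.5 and 12.4 RPKM in control 1, 2 and 3 and 5.76, 5.83 and 5.25 RPKM in iPCKO 1, 2 and 3 (log2 fold change -1.12). Wwtr1 was 71.3, 53.8 and 56.1 RPKM against 63.5, 60.3 and 62.2 RPKM (0.05, adjusted p = 0.82), so its gene-wide RPKM did not separate the groups; which part of the gene the deletion removes was not used here. Low values implied between 14.2 and 39.6 M reads per sample, with 1 read on a gene with 1 kb of exons worth 0.0252 RPKM in the deepest sample (iPCKO 2) and 0.0702 RPKM in the shallowest (iPCKO 3). Y-linked Ddx3y was 17.2 and 19.7 RPKM in control 1 and control 3 and 0 in the other 4 samples. Sex thus differed among the controls and not among the iPCKO samples, and the values of control 2 are set apart further on.

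Of the 60 genes, 17 reached 1 RPKM in at least 3 of the 6 samples and were tested, 10 ligands and 7 receptors. The remaining 43 lay under that filter, 4 of them (Ccl1, Ccl20, Ccl26 and Ccr1l1) at 0 in every sample. The test was limma on log2(RPKM + 0.1) over all 12034 genes that passed the filter, and a gene was called when its Benjamini-Hochberg adjusted p was below 0.01 and its log2 fold change, iPCKO minus control, beyond 0.5 in either direction. Among all tested genes, 6.79% were called, 4.11% higher and 2.68% lower in iPCKO samples. Among the 17 chemokine genes, 7 were called. Cxcl13 and Cxcl14, both ligands, were lower, and Ccl6, Ccl9, Ccr1, Ccr2 and Cxcr2, 2 ligands and 3 receptors, were higher. The median log2 fold change was 0.10 over the 10 tested ligands, 0.74 over the 7 tested receptors and 0.00 over all tested genes. Ccl9, Ccr1, Ccr2 and Ccl21a passed the filter only with the help of iPCKO samples, Ccr1 with 1 and the others with 2 controls at 1 RPKM, so the counts over tested genes are partly set by the filter.

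**Figure D1:**
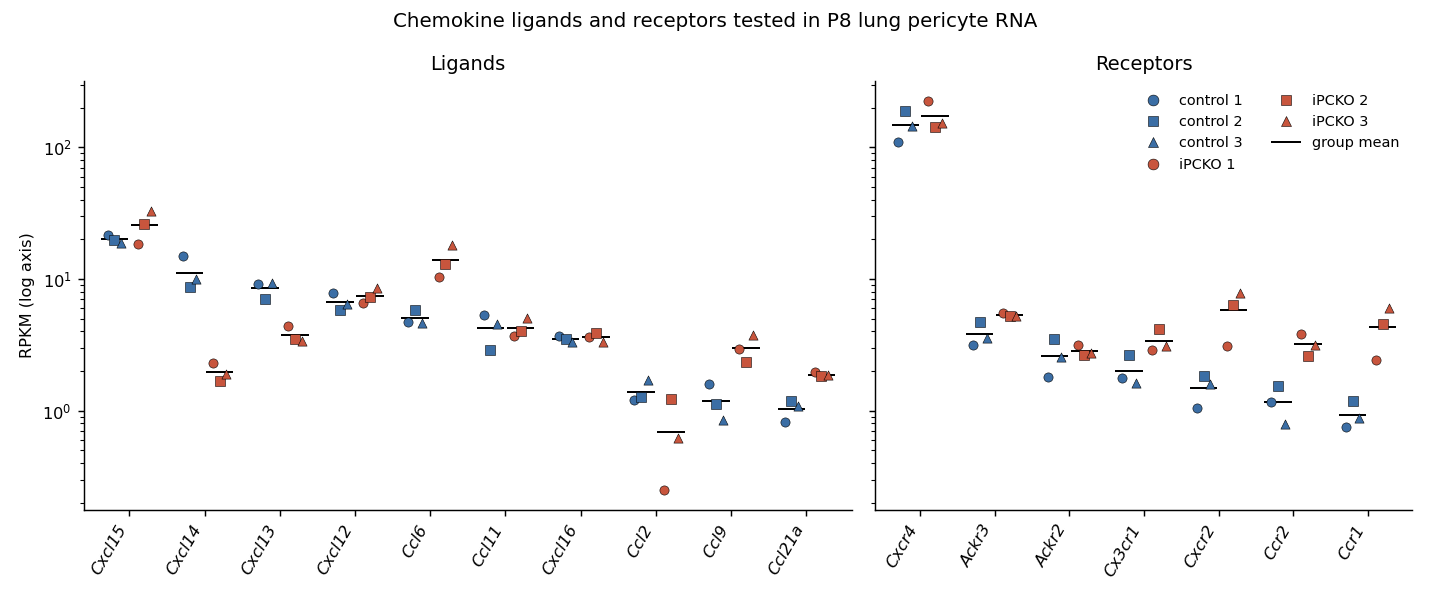
RPKM (log axis) of the 10 tested ligands and 7 tested receptors in each of the 3 control (blue) and 3 iPCKO (red) samples; marker shapes give the sample number and black lines the group means. Cxcl14 and Cxcl13 lie below every control in all 3 iPCKO samples, Ccl6, Ccl9, Ccr1, Ccr2 and Cxcr2 lie above, and Cxcr4 stands at 109 RPKM or more in every sample.

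The start regions of the 4 called ligands are shown, Cxcl14 and Cxcl13, which were lower, and the neighbouring Ccl6 and Ccl9, which were higher. Each stretch runs 5′ to 3′ on the gene's own strand over 250 bases before and 50 bases from the RefSeq start site on GRCm38.p6 (46 of the 60 genes had an entry), and capitals mark matches to the motifs given next. The stretches lie at chr13:56296502-56296801 on the minus strand (Cxcl14), chr5:95956689-95956988 on the plus strand (Cxcl13), chr11:83593038-83593337 on the minus strand (Ccl6) and chr11:83578587-83578886 on the minus strand (Ccl9).
Cxcl14: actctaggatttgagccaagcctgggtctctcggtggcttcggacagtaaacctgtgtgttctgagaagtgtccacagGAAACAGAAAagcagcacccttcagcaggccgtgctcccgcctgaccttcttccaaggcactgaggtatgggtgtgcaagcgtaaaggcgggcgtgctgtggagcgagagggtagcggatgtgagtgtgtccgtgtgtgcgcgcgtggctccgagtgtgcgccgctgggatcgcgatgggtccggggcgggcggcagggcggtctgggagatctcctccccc
Cxcl13: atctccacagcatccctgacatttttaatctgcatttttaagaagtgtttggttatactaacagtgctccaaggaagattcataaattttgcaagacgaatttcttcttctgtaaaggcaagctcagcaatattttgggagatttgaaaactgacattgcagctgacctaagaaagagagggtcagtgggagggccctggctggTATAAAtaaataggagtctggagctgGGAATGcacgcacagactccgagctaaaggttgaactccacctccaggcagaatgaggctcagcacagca
Ccl6: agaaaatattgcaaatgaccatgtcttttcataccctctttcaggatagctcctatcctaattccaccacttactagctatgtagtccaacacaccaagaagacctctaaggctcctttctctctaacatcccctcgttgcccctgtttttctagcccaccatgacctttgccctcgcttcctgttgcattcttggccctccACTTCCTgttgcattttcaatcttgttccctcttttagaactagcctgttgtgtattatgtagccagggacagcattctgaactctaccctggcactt
Ccl9: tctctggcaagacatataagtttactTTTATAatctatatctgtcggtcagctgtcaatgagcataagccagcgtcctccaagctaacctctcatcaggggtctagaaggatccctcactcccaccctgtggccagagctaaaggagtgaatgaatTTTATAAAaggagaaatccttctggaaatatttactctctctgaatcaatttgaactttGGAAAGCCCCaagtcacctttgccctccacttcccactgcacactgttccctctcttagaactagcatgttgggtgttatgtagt

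The motifs, chosen with the values known, were looked for on both strands as bare letters. TEAD factors are the DNA-binding partners of YAP1 and TAZ, and their core GGAATG stood in the Cxcl13 stretch, starting at position -20 from the start site, as in 14.7% of all 32817 mouse promoters of the same length and in 6 of the 46 chemokine genes. A TATA element (TATAAA, 13.6% of all promoters) stood at -46 of Cxcl13 and at -92 of Ccl9, where the same letters on the other strand began at -224 and -94, the latter overlapping the match at -92. The interferon response letters, GAAA and GAAA with 2 free bases between them (3.43%), began at -172 of Cxcl14, the ETS letters AGGAAGT (9.35%) lay at -48 of Ccl6 on the opposite strand, and the NF-kappaB letters, GGG and TTCC with 3 free bases between them (5.56%), lay at -35 of Ccl9, also reversed. The Cxcl14, Ccl6 and Ccl9 windows held no GGAATG on either strand, which says only that these letters were not in the 300 bases searched.

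Cxcl14 had the largest fold change of the 17 tested genes. It encodes a constitutively made CXC ligand known from epithelia and fibroblasts, with effects on monocytes and dendritic cells, and lies at chr13:56288643-56296551 (GRCm38, minus strand). Its level was 14.8, 8.68 and 9.99 RPKM in control 1, 2 and 3 and 2.31, 1.69 and 1.89 RPKM in iPCKO 1, 2 and 3. The lowest control was above every iPCKO sample, and the iPCKO samples lay close together. The mean fell from 11.2 ± 3.24 to 1.96 ± 0.316 RPKM (SD, n = 3 each), to 17.5% of control (log2 fold change -2.43, SE 0.20, 95% CI -2.88 to -1.97, adjusted p = 0.000168 by limma). In bulk RNA of this kind, fewer cells that make a transcript and less transcript per cell cannot be told apart. The call held in all 16 alternative fits, each left-out sample included.

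Cxcl13 was the other ligand to fall. It attracts B cells through CXCR5 and is known from stromal cells of lymphoid follicles, and it lies at chr5:95956951-95961068 (plus strand). It measured 9.09, 7.0 and 9.35 RPKM in the controls against 4.39, 3.49 and 3.41 RPKM in the iPCKO samples, which came from about 206, 140 and 373 reads and 107, 159 and 56 reads. Again no iPCKO sample reached the lowest control, and control 2 was the lowest of the 3. The fall was to 44.4% of control (log2 fold change -1.15, SE 0.15, 95% CI -1.48 to -0.82, adjusted p = 0.0013).

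Cxcl12, the stromal ligand of CXCR4, was not called. It was 7.78, 5.84 and 6.49 RPKM in controls and 6.54, 7.25 and 8.54 RPKM in iPCKO samples, and the groups overlapped. Its log2 fold change of 0.15 had a 95% CI from -0.16 to 0.46 (adjusted p = 0.51), an interval that leaves out a change as large as that of Cxcl13. Cxcl14 exceeded Cxcl12 in every control, by ratios of 1.91, 1.49 and 1.54, and was below it in every iPCKO sample, at 0.353, 0.233 and 0.221. The order of these constitutively made ligands per length was therefore Cxcl14, Cxcl13 and Cxcl12 in controls and Cxcl12, Cxcl13 and Cxcl14 in iPCKO samples by group means.

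Cxcl15 had the highest RPKM of all ligands. The gene, also called lungkine, is known from lung epithelium, and its product attracts neutrophils. It was 21.7, 19.9 and 18.9 RPKM in controls and 18.5, 26.1 and 32.9 RPKM in iPCKO samples, which overlapped (log2 fold change 0.32, 95% CI -0.10 to 0.74, adjusted p = 0.29). Of the 11 epithelial markers, 10 were tested and 1 (Sftpb) was called higher. Their sum, in which Sftpc and Scgb1a1 weigh most, was between 621 and 700 RPKM in controls and between 884 and 959 RPKM in iPCKO samples, and their part in the Cxcl15 values was not tested. Cxcl16, a membrane-bound ligand of CXCR6, was 3.68, 3.49 and 3.33 RPKM against 3.64, 3.87 and 3.32 RPKM (0.04, 95% CI -0.20 to 0.29). Its exons overlap those of Zmynd15 on the other strand, and whether the counting used the strand is not given in the sources used here.

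**Figure D2:**
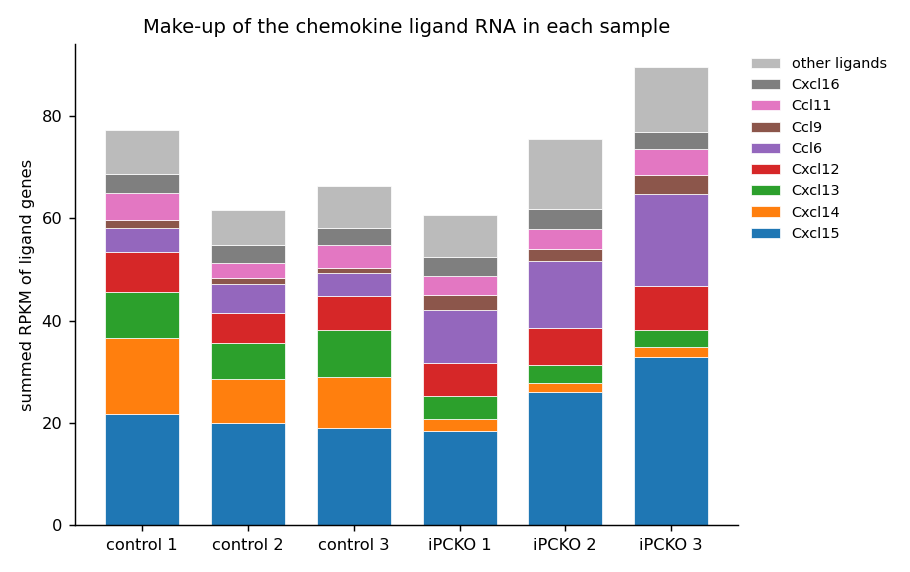
Summed RPKM of all 37 ligand genes in each sample (bars from 0), split into the 8 ligands of highest mean and the rest. The orange and green segments, Cxcl14 and Cxcl13, together made up 31.0%, 25.4% and 29.2% of the sum in controls and 11.0%, 6.85% and 5.91% in iPCKO samples, while the purple and brown segments, Ccl6 and Ccl9, made up 8.22%, 11.2% and 8.31% in controls and 22.0%, 20.4% and 24.4% in iPCKO samples.

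The total of ligand RNA overlapped between the groups, while the shares of the called ligands in it did not. The 37 ligands summed to 77.3, 61.6 and 66.2 RPKM in controls and 60.6, 75.6 and 89.7 RPKM in iPCKO samples, which overlapped. Within that sum, the share of Cxcl13 plus Cxcl14 was 28.5% ± 2.82 in controls and 7.93% ± 2.74 in iPCKO samples (SD, n = 3), and the share of Ccl6 plus Ccl9 was 9.25% ± 1.70 and 22.3% ± 1.98. These 2 shares sum the ligands already called in the same samples, so their non-overlap follows largely from those calls and adds no support. Cxcl15 held 28.1% to 32.2% in controls and 30.4% to 36.7% in iPCKO samples, which overlapped. With 3 samples a group an exact permutation test of such shares cannot go below p = 0.1, so all shares are given as a description.

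Ccl6 and Ccl9, neighbouring genes on chromosome 11 whose products bind CCR1 and are known from macrophages and other myeloid cells, were both higher in iPCKO samples. Ccl6 (chr11:83587882-83593087, minus strand) was 4.75, 5.78 and 4.66 RPKM in controls and 10.4, 13.1 and 18.1 RPKM in iPCKO samples. Every iPCKO value exceeded every control, with iPCKO 3 highest, and the mean was 2.74 times the control mean (log2 fold change 1.41, SE 0.19, adjusted p = 0.0017). Ccl9 (chr11:83572919-83578636, minus strand) was 1.6, 1.13 and 0.852 RPKM in controls and 2.95, 2.34 and 3.75 RPKM in iPCKO samples (1.28, SE 0.24, adjusted p = 0.0091). It too did not overlap, but it stood close to the threshold. Without control 1, Ccl6 had an adjusted p of 0.0105, and with any sample but control 1 left out, Ccl9 had an adjusted p between 0.0138 (iPCKO 2) and 0.0357 (iPCKO 3).

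The other tested CC ligands were not called. Ccl21a, the homing ligand of CCR7 known from lymphatic endothelium, was 0.816, 1.19 and 1.09 RPKM in controls and 1.95, 1.83 and 1.85 RPKM in iPCKO samples, from 14 to 63 reads. Its log2 fold change was 0.82 (adjusted p = 0.015), and near-identical gene copies make its counts uncertain. The 5 lymphatic endothelial markers summed to between 12.0 and 15.7 RPKM in controls and between 16.3 and 19.7 RPKM in iPCKO samples beside it. Ccl11, the eosinophil-attracting eotaxin, was 5.30, 2.92 and 4.56 RPKM against 3.67, 4.01 and 5.06 RPKM (0.03, 95% CI -0.47 to 0.52). Ccl2, which draws monocytes through CCR2, was 1.20, 1.26 and 1.70 RPKM in controls and 0.249, 1.22 and 0.616 RPKM in iPCKO samples. The Ccl2 values overlapped at iPCKO 2 and control 1, and the log2 fold change of -1.09 had a wide 95% CI, -2.07 to -0.12 (adjusted p = 0.13).

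Of the receptors, Cxcr4 far exceeded the rest. CXCR4 is the signalling receptor of CXCL12 and is known from leukocytes and from tip cells of growing vessels. Its level was 109, 190 and 146 RPKM in controls and 227, 144 and 152 RPKM in iPCKO samples, and by control mean the gene ranked 183 of 21603. It made up between 89.7% and 90.8% of the RPKM of all 23 receptors in controls and between 83.2% and 90.6% in iPCKO samples. The groups overlapped, with iPCKO 1 highest and control 1 lowest (log2 fold change 0.24, 95% CI -0.29 to 0.76, adjusted p = 0.54). Ptprc, the pan-leukocyte marker, was 3.58, 5.04 and 4.05 RPKM in controls, in the same order as Cxcr4, and 6.11, 9.99 and 14.1 RPKM in iPCKO samples, where Cxcr4 was instead highest in iPCKO 1. The 5 erythrocyte markers had the order of Cxcr4 in both groups. They summed to 1867, 2338 and 2050 RPKM in controls and to 5119, 1149 and 2088 RPKM in iPCKO samples. The part of leukocyte or other blood cell RNA in the Cxcr4 values was not tested. Cxcr4 lies at chr1:128588199-128592293 (minus strand).

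The 3 receptors called higher are best known from inflammatory myeloid cells. Ccr1, the receptor of CCL3, CCL6 and CCL9 on monocytes and neutrophils, was 0.753, 1.17 and 0.876 RPKM in controls and 2.42, 4.56 and 6.07 RPKM in iPCKO samples, from about 42, 58 and 86 reads against 145, 512 and 245 reads. The smallest iPCKO value was above every control, and the mean was 4.66 times that of controls (log2 fold change 2.03, SE 0.31, adjusted p = 0.0032). Cxcr2, the neutrophil receptor of the CXCL1 and CXCL2 group, was 1.05, 1.83 and 1.6 RPKM in controls and 3.09, 6.37 and 7.87 RPKM in iPCKO samples (1.81, SE 0.33, adjusted p = 0.0076). Ccr1 and Cxcr2 kept the same order of iPCKO samples, 3 above 2 above 1. Ccr2, the CCL2 receptor of classical monocytes, was 1.17, 1.53 and 0.793 RPKM in controls and 3.84, 2.61 and 3.17 RPKM in iPCKO samples (1.41, SE 0.24, adjusted p = 0.0050), with iPCKO 1 highest. Outside Cxcr4, the receptors summed to 12.5, 19.4 and 14.8 RPKM in controls and 23.5, 28.4 and 30.8 RPKM in iPCKO samples, which did not overlap. That sum contains the 3 receptors already called in the same samples, so its non-overlap follows largely from those calls and adds no support.

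These 3 calls depended on single samples. Ccr1 missed the threshold without control 1, control 3 or iPCKO 2, with adjusted p of 0.0168, 0.0150 and 0.0160. Ccr2 missed it with any sample but control 2 left out, between 0.0107 (iPCKO 2) and 0.0202 (iPCKO 3), and Cxcr2 with any but iPCKO 1 left out, between 0.0137 (control 2) and 0.0310 (iPCKO 2). The log2 fold changes themselves stayed between 1.75 and 2.39 for Ccr1, between 1.18 and 1.62 for Ccr2 and between 1.54 and 2.20 for Cxcr2.

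Cx3cr1, the fractalkine receptor of patrolling monocytes and tissue macrophages, was 1.76, 2.67 and 1.63 RPKM in controls and 2.92, 4.17 and 3.11 RPKM in iPCKO samples. The groups did not overlap, yet the log2 fold change of 0.74 (95% CI 0.26 to 1.21) had an adjusted p of 0.046. An antisense gene, Gm33858, shares exon sequence with it. Ackr3, the scavenger of CXCL12, was 3.14, 4.74 and 3.58 RPKM in controls and 5.49, 5.26 and 5.20 RPKM in iPCKO samples (0.49, adjusted p = 0.061). Ackr2, which clears inflammatory CC chemokines, was 1.80, 3.48 and 2.56 RPKM against 3.16, 2.65 and 2.75 RPKM and overlapped (0.16, adjusted p = 0.66). The tested atypical receptors, Ackr2 and Ackr3, were thus not called in either direction, although the Ackr3 groups did not overlap (95% CI 0.15 to 0.82). Ackr1 and Ackr4 lay under the filter and were not tested.

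**Figure D3:**
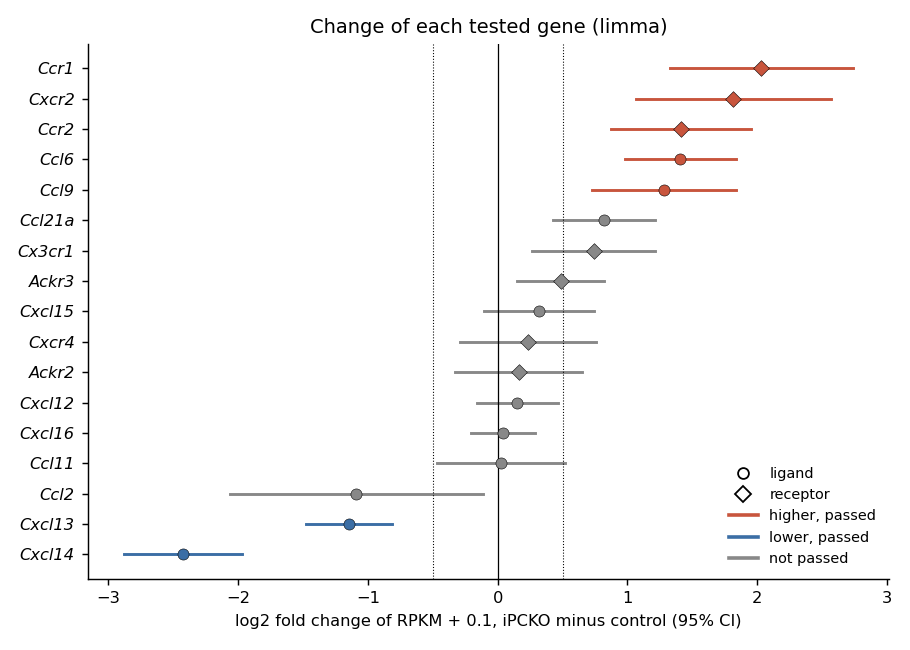
Log2 fold change of RPKM + 0.1, iPCKO minus control, for each of the 17 tested genes with its 95% CI (bars) from limma; circles are ligands and diamonds receptors, and dotted lines mark 0.5 in either direction. The 5 red genes, from Ccl9 at 1.28 to Ccr1 at 2.03, and the 2 blue genes, Cxcl13 at -1.15 and Cxcl14 at -2.43, passed the test. Of the 17 estimates, 14 lie above 0, as do 50.0% of those of all tested genes. Ccl9, Ccr1, Ccr2 and Ccl21a passed the filter only with the help of iPCKO samples, which partly sets the count of 14.

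Non-overlap of the groups was counted on the same values and after the same filter as the test, so it is not separate support. All 3 iPCKO values lay above all controls in 8 of the 17 tested genes, where 18.3% of all tested genes did so, and below in 2, where 17.1% of all did. Among the 8, Ccl9, Ccr1, Ccr2 and Ccl21a passed the filter only with the help of iPCKO samples, so this count is partly set by the filter. The 8 were the 5 genes called higher, Ccl21a, Cx3cr1 and Ackr3. Control 2, the only control without Y-linked RNA, stood within this pattern for the 7 called genes: it had 8.68 RPKM of Cxcl14, 7.0 of Cxcl13, 5.78 of Ccl6, 1.13 of Ccl9, 1.17 of Ccr1, 1.53 of Ccr2 and 1.83 of Cxcr2. For Cxcl13, Cxcl14, Ccl6, Ccr1, Ccr2 and Cxcr2 it was the control nearest to the iPCKO samples. When the level of Y-linked transcripts was added to the fit, which then rests on that single control, Cxcl14 alone was called (-2.11, adjusted p = 0.0064) and 0 genes were called higher, with 7 higher at an unadjusted p below 0.05. Cxcl13 then had -0.88 (adjusted p = 0.040) and Ccl6 1.21 (0.052), and Ccr1, Ccl9, Ccr2 and Cxcr2 had adjusted p between 0.086 and 0.15.

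Sums of myeloid and general leukocyte markers were also higher in iPCKO samples. Among all tested genes, 4.11% were called higher. The 10 neutrophil markers summed to between 86.3 and 128 RPKM in controls and to 447, 1987 and 4953 RPKM in iPCKO 1, 2 and 3, and 5 of the 10 were called higher. S100a8, a granule protein gene of neutrophils, was 25.6, 39.4 and 28.0 RPKM in controls against 156, 727 and 1726 RPKM. Ccr1, Cxcr2 and Ccl6 followed the same order of iPCKO samples as this list, and Ccl9 and Ccr2 did not. Cxcl12, Cxcl15 and Ccl11, which were not called, had that order too, as did the sums of the leukocyte, platelet and epithelial lists. The order is thus not particular to neutrophil RNA. The 10 macrophage and monocyte markers summed to between 104 and 178 RPKM in controls and between 345 and 550 RPKM in iPCKO samples, with 3 called higher (Lyz2, Marco and Ly6c2). Their sum was highest in iPCKO 3 and their mean log2 level in iPCKO 2, and Cx3cr1 was highest in iPCKO 2. The 10 general leukocyte markers summed to between 60.4 and 74.6 RPKM and between 102 and 198 RPKM, with 5 called higher. Every marker of these lists had a value above 0 in every control, so such RNA was present in controls as well. Their part in the values of Ccl6, Ccl9, Ccr1, Ccr2 and Cxcr2 was not tested.

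Lymphoid, dendritic and mast cell markers gave 0 calls. The 10 markers of T, NK and B cells summed to between 7.81 and 8.68 RPKM in controls and between 5.28 and 8.14 RPKM in iPCKO samples, and none of the 3 tested was called. The mean log2 level of the 5 dendritic cell markers differed by 0.24 (2 tested) and that of the 5 mast cell and basophil markers by 0.49 (3 tested), with 0 called in either list. All iPCKO samples lay above all controls for 2 of the 5 dendritic and 3 of the 5 mast cell and basophil markers, tested or not. Among all genes, 18.3% of those tested did so, and 11.3% of those under the filter with a value above 0. With lists this short, these counts are a description. Few markers of these lists were tested, so the 0 calls are not a finding of no change. The 8 platelet markers summed to between 8.49 and 10.2 RPKM in controls and between 20.5 and 32.3 RPKM in iPCKO samples, and 4 of the 5 tested were called higher. Beside this count and those that follow, 4.11% of all tested genes were called higher and 2.68% lower. Endothelial markers differed by 0.09 (2 of 10 called higher), fibroblast markers by 0.15 (0 of 7), lymphatic endothelial markers by 0.47 (0 of 3 tested), smooth muscle markers by 0.42 (2 of 6 higher), mesothelial markers by 0.51 (1 of 2 tested higher), epithelial markers by 0.35 (1 of 10 tested higher) and erythrocyte markers by 0.13 (0 of 5). The erythrocyte sums were uneven, from 1149 to 5119 RPKM in iPCKO samples against 1867 to 2338 RPKM in controls. Of the 12 pericyte markers, Cspg4, Kcnj8 and Abcc9 were called higher and Notch3 and Rgs5 lower, and Pdgfrb was not called (-0.20, adjusted p = 0.46).

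**Figure D4:**
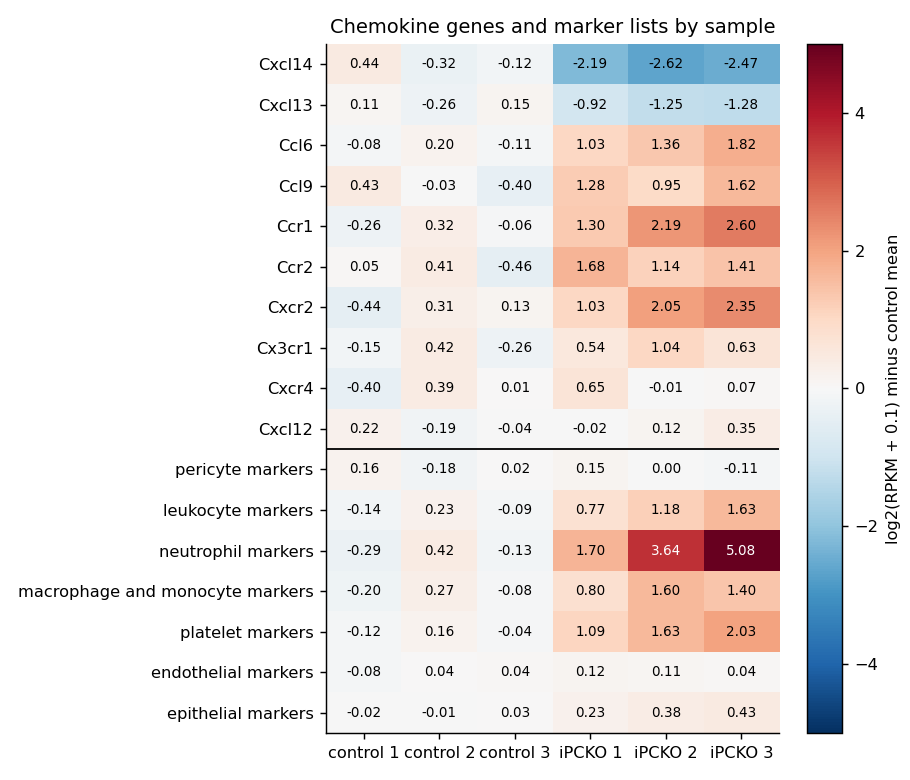
Difference of log2(RPKM + 0.1) from the control mean in each of the 6 samples (columns) for 10 chemokine genes (upper rows) and for the mean over each of 7 marker lists (lower rows); red is higher and blue lower. The neutrophil row stands at 1.70, 3.64 and 5.08 in iPCKO 1, 2 and 3. Ccr1, Cxcr2, Ccl6 and Cxcl12 share its order, as do the leukocyte, platelet and epithelial rows. Cxcl14 stays between -2.62 and -2.19 in iPCKO samples, and the pericyte row stays between -0.18 and 0.16.

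Below the filter, 39 genes had a value above 0 in at least 1 sample. All 3 iPCKO samples exceeded all controls in 5 of them (Ccl3, Ccl4, Cxcl9, Cxcl10 and Cxcl17), against 11.3% of all genes in that range, and fell below in 3 (Ccl19, Ccl27a and Ccl28), against 7.88%. Both counts were near the shares of all genes. Ccl4, Cxcl17, Ccl19, Ccl27a and Ccl28 are named after their values were seen, the others because 1 sample or more reached 1 RPKM.

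Ccl3, a ligand of CCR1 made by activated myeloid cells, was 0.265, 0.150 and 0.226 RPKM in controls and 0.987, 1.38 and 1.1 RPKM in iPCKO samples. The values rest on about 4, 2 and 6 reads in controls and 16, 42 and 12 reads in iPCKO samples. In the fit without the filter Ccl3 was called higher (2.01, SE 0.22, adjusted p = 0.0017). Ccl4, its neighbour on chromosome 11, had 1, 0 and 1 reads against 2, 9 and 3 reads, too few for a statement on its size. The interferon-induced ligands of CXCR3 were also low. Cxcl10 was 0.300, 0.151 and 0.341 RPKM in controls and 0.497, 2.49 and 1.89 RPKM in iPCKO samples (unfiltered fit, adjusted p = 0.048), and Cxcl9 was 0.0873, 0.0395 and 0.258 RPKM against 0.325, 0.912 and 1.28 RPKM (0.041). Neither was called, and for both iPCKO 1 was the lowest of its group. Cxcl10 shares exon sequence with Art3 on the other strand.

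Among the ligands that lay lower, Ccl19, which shares the receptor CCR7 with CCL21, was 0.878, 0.463 and 0.432 RPKM in controls and 0, 0.204 and 0 RPKM in iPCKO samples (unfiltered fit, adjusted p = 0.022). Ccl27a and Ccl28, the ligands of CCR10, ranged from 0.434 to 0.576 RPKM and from 0.270 to 0.462 RPKM in controls and from 0.207 to 0.278 RPKM and from 0.0632 to 0.207 RPKM in iPCKO samples, with adjusted p of 0.036 and 0.061. Ccl27a has near-identical copies and shares exon sequence with Il11ra1 on the other strand. Ccr7 itself, a receptor of lymphocytes and mature dendritic cells, was 0.795, 1.19 and 1.37 RPKM in controls and 0.836, 0.434 and 0.461 RPKM in iPCKO samples and overlapped at iPCKO 1 (adjusted p = 0.11). Cxcl1, a ligand of CXCR2, was 0.852, 0.421 and 0.484 RPKM against 0.545, 1.59 and 0.515 RPKM, with iPCKO 2 alone above 1 RPKM. Cxcl17, a mucosal ligand, lay between 0.200 and 0.301 RPKM in controls and between 0.372 and 0.737 RPKM in iPCKO samples (unfiltered fit, adjusted p = 0.099). The highest value of any sample had a median of 0.289 RPKM over the 43 untested genes.

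**Figure D5:**
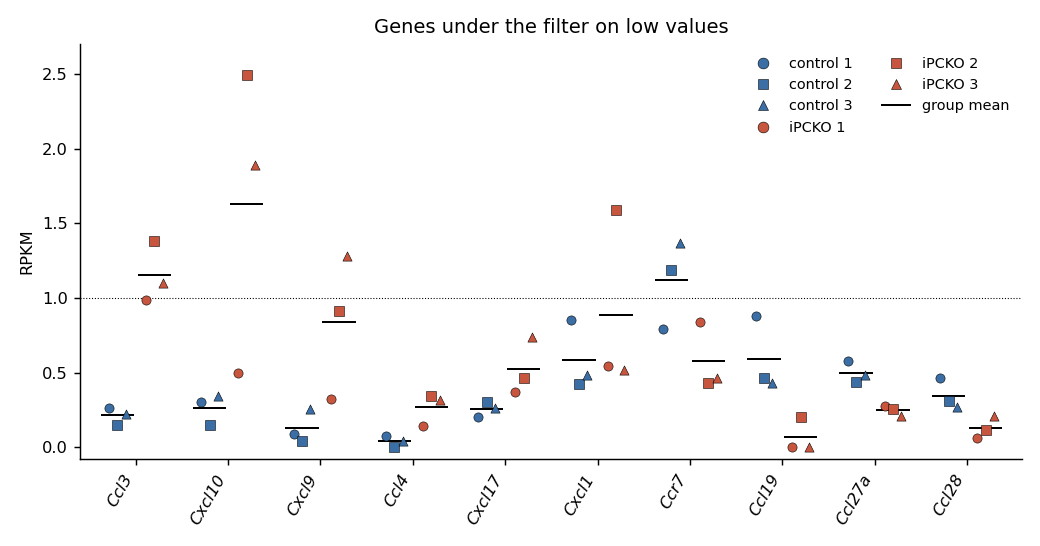
RPKM (linear axis) of 10 chemokine genes under the filter in each control (blue) and iPCKO (red) sample, with group means as black lines and the filter level of 1 RPKM dotted. Ccl3, Cxcl10, Cxcl9, Ccl4 and Cxcl17 lie higher in all iPCKO samples, Ccl19, Ccl27a and Ccl28 lie lower, and Cxcl1 and Ccr7 overlap; no control exceeds 1.37 RPKM.

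The same values can be read by ligand and receptor. CXCL12 had both its receptors, Cxcr4 and Ackr3, among the tested genes, and none of the 3 was called. Cxcl13 fell while its receptor Cxcr5 stayed under the filter, at 0.377, 0.833 and 0.531 RPKM in controls and 0.502, 0.143 and 0.149 RPKM in iPCKO samples, with exon sequence shared with Bcl9l. Ccr1 and its ligands Ccl6 and Ccl9 were all called higher. Ccr2 was called higher while its ligand Ccl2 had an estimate below 0. Cx3cl1, the ligand of CX3CR1, lay between 0.495 and 0.953 RPKM over the 6 samples and overlapped. Among ligands of CXCR2, Cxcl2, Cxcl3 and Cxcl5 never exceeded 0.263 RPKM, and Cxcl1 reached 1.59 RPKM in iPCKO 2. Related chemokines outside the naming rule, Ppbp among them, are given below, so this is not the whole ligand RNA. Cxcr6, Ccr3 and Cxcr3, receptors of CXCL16, CCL11 and CXCL9 with CXCL10, never exceeded 0.360, 0.141 and 0.243 RPKM.

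Genes around the pathway were counted over lists taken whole, beside 4.11% of all tested genes called higher and 2.68% called lower. With lists this short, the counts are given as a description. Of 10 related ligands and receptors outside the naming rule, 9 were tested and 3 were called higher, 0 lower. They were Ppbp and Pf4, chemokines stored in platelet granules, and Cmklr1, the chemerin receptor. Ppbp was 1.22, 2.02 and 1.17 RPKM in controls and 4.72, 18.3 and 25.8 RPKM in iPCKO samples (log2 fold change 3.11), and Pf4 was 3.64, 3.13 and 1.97 RPKM against 8.95, 12.5 and 21.4 RPKM (2.21). Both had the same order of iPCKO samples as the sum of the platelet markers, whose part was not tested. The neutrophil and epithelial sums had that order too. Of 24 genes of receptor signal transduction, 23 were tested, with 3 called higher and 1 lower. Rac2 (2.47), Was (1.49) and Prex1 (0.76), which drive actin assembly in moving blood cells, were higher, and Rac2 also stands in the leukocyte list. Gng2, a G protein gamma subunit, fell from 31.9, 20.9 and 24.6 RPKM to 12.6, 11.8 and 11.1 RPKM (-1.1, adjusted p = 0.0017).

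Inducers of chemokine transcription gave 1 call among 16 tested of 21 listed, near the 6.79% called among all tested genes. Tnfrsf1a, a receptor of tumour necrosis factor, was 42.3, 32.8 and 33.3 RPKM in controls and 53.9, 52.9 and 54.7 RPKM in iPCKO samples (0.58, adjusted p = 0.0093). Il1b was 0.426, 1.95 and 1.51 RPKM against 2.50, 6.56 and 7.54 RPKM, with an adjusted p of 0.035, and the NF-kappaB subunit genes Nfkb1 and Rela had log2 fold changes of 0.00 and 0.21. Of 20 genes for chemokine binding, presentation and cleavage, 18 were tested and 2 were called higher, where 4.11% of all tested genes were. They were Mmp9 (3.62), a protease that also stands in the neutrophil list, and Gpc1 (0.97), a heparan sulphate proteoglycan. Gpc1 was 21.8, 17.6 and 15.5 RPKM in controls and 38, 34.5 and 34.5 RPKM in iPCKO samples. Ccrl2 and Sdc2, named after their values were seen, were not called: Ccrl2, a chemerin-binding surface protein, was 59.6, 68.3 and 75.5 RPKM against 57.0, 35.7 and 34.5 RPKM (-0.71, adjusted p = 0.038), and the syndecan Sdc2 was 184, 166 and 182 RPKM against 137, 108 and 105 RPKM (-0.62, adjusted p = 0.012).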

How the data were processed

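Ribosome-bound RNA was sequenced in 3 control and 3 iPCKO lung samples, grouped by the sample titles. According to the methods of the study, libraries were stranded and made from total RNA, alignment of the read pairs used TopHat on mm10 (GRCm38), and HTSeq 0.6.1 gave the gene counts. The authors deposited RPKM per Ensembl gene, 1 table per sample. The gene length and strand setting used are not given in the sources used here. RPKM no longer shows the reads behind a value, and any RNA carried through the pulldown enters it.

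Count tests were not used because the deposited values are RPKM. Genes that reached 1 RPKM in 3 or more of the 6 samples were tested with limma on log2(RPKM + 0.1), using eBayes with an intensity trend and adjusted p-values after Benjamini and Hochberg; the added 0.1 understates changes of low genes. No further scaling was used. Calls needed both an adjusted p below 0.01 and a log2 fold change beyond 0.5 in size, as in the study. On simulated data the script recovered 197 of 199 tested genes changed by 1 log2 unit, with 1 false call. That recovery holds for the simulated spread only. In the measured data, larger log2 fold changes were left uncalled by limma for Ccl2 (-1.09, adjusted p = 0.13), Il1b (2.08, 0.035), Ly6g (2.65, 0.041) and Mmp8 (3.82, 0.015). How many changes of that size are missed in the measured data was not tested. Depth was estimated from the steps between low RPKM values where a gene has 1 annotated transcript, of which 78.5% to 81.4% lay within 0.05 reads of a whole number; reads printed for single genes come from these steps and cover counting only.

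All tested chemokine genes are named with every sample value, untested ones where a sample reached 1 RPKM, and up to 3 of the largest calls of each pathway list. Other genes named outside the marker lists (Il1b, Nfkb1, Rela, Ccrl2, Sdc2 and further low chemokine genes) were chosen after their values were seen. The members, the pathway lists and the marker lists were chosen with earlier results of these data known. Alternatives were a replicate block, other filters, pseudocounts, scalings, thresholds and weights, a Y-linked covariate, and each sample left out. Symbols and coordinates came from GENCODE M21 and promoters from RefSeq. Tools were limma 3.58.1 under R 4.3.3, and pandas 2.3.3, numpy 2.4.6 and matplotlib 3.10.9 under Python 3.11.15.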

Additional observations from a re-analysis of the deposited data

How the results depend on the processing

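The 2 chemokine genes called lower, Cxcl13 and Cxcl14, were called in every alternative except the Y-linked covariate, where 1 was called, Cxcl14. The 5 called higher were less stable: 3 were called with no filter on low values (Ccl3, Ccl6 and Ccr1), 2 with at least 1 RPKM in all 6 samples (Ccl6 and Cxcr2), 0 with the Y-linked covariate (7 at an unadjusted p below 0.05), and between 1 and 3 with a sample left out. Ccr1, Ccr2 and Ccl9 fell out of the all-sample filter because they were not tested there. Over all genes, 817 were called, against 1590 with sample weights, 1313 at an adjusted p below 0.05, 411 at an absolute log2 fold change above 1, 119 with the Y-linked covariate, and between 382 and 899 with a sample left out. Pseudocounts of 1 and 0.01, median-ratio scaling, quantile normalization and no intensity trend called 5, 5, 4, 4 and 4 chemokine genes higher, and sample weights and an adjusted p below 0.05 called 7 each; other causes were not tested.

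Only genes that were not called changed sign: Ackr2 (-0.28 with the Y-linked covariate, -0.063 with sample weights, and from -0.069 without control 1 to 0.387 with a sample left out), Cxcr4 (-0.15 with the covariate, -0.085 with weights), Ccl11 (from -0.22 without control 2 to 0.201, and -0.10 without iPCKO 3) and Cxcl16 (from -0.0078 without iPCKO 2 to 0.099). With a replicate block 922 genes were called, and among chemokine genes 5 higher, with Cx3cr1 (adjusted p = 0.0088) in place of Ccl9 (0.011), and 2 lower. Deviations of samples with the same number correlated at 0.24, 0.09 and 0.02, so the numbers were not taken as pairs. Depth limits the genes below 1 RPKM, where 1 read is worth up to 0.0702 RPKM on 1 kb.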
